A study of Mus musculus with 6 samples.

Results

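The Rbm genes are the mouse genes whose symbol is Rbm followed by a number and at most 1 letter. They were taken by that pattern from 55401 gene rows, leaving out Rbm7, Rbm8a and Rbm15, which gave 33 genes. Their levels were measured in RNA labelled with 4-thiouridine (4sU), a uridine analogue that cells build into RNA while it is present, so that newly made transcripts weigh more than they do in whole RNA. All 6 libraries were made from 129/Ola mouse embryonic stem cells. The cells carry, per the treatment protocol, an auxin-inducible degron on the zinc finger protein ZFP207 (ZFP207AID), through which indole-3-acetic acid (IAA) sends the tagged protein to the proteasome. The 3 control libraries are titled 0 h, with the genotype label WT, and the 3 depleted libraries had 5 h of IAA and a genotype label naming ZFP207 degradation. The titles and the treatment protocol describe the controls as degron cells without IAA, which their genotype label does not state. Effects of IAA itself cannot be told apart from those of losing ZFP207, as untagged cells with IAA were not analysed here. The series asks how ZFP207 acts on U1 snRNP, the particle that recognises the start of introns.

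Rbm stands for RNA-binding motif protein, a name given to proteins that hold an RNA recognition motif, a small fold that grips single-stranded RNA. The name joins proteins of different jobs. Some sit in the spliceosome or choose splice sites (Rbm5, Rbm10, Rbm17, Rbm22, Rbm25, Rbm39), some guide nuclear RNA decay or methylation (Rbm26, Rbm27, Rbm15b), some make ribosomes in the nucleolus (Rbm19, Rbm28), and some belong to muscle or germ cells (Rbm20, Rbm24, Rbm44, Rbm46). Many splicing factors of this kind are known to tune their own transcripts through alternative exons.

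After 5 h of IAA, the test planned as the main one called 0 Rbm genes. Most of the Rbm genes called in an alternative fit had risen, by small steps. In that fit, which paired libraries by replicate number, 7 of the 30 genes with enough counts rose, by 1.22 to 1.64-fold, and 1 fell. Those that rose were Rbm14, Rbm38, Rbm45, Rbm4b, Rbm22, Rbm39 and Rbm15b, and Rbm44, a low-count germ cell gene, fell. Over all 17573 genes tested, this fit called 4.96% higher and 7.9% lower, against 23.3% and 3.33% of the Rbm genes tested. In such bulk libraries, more cells with a transcript and more RNA per cell cannot be told apart. The test is edgeR's quasi-likelihood test with a block for each replicate number, called at an adjusted p under 0.05 (Benjamini-Hochberg over all genes), and is named the paired fit. The same test without the block, the unpaired fit, was the one planned as the main test. It called 0 Rbm genes in either direction, with 0.0114% of all genes called higher and 0.78% lower. At an unadjusted p under 0.05 it held 5 Rbm genes higher and 0 lower, where all genes gave 2.68% and 8.21%. DESeq2 without the block called Rbm14 and Rbm45 higher and 0 lower (0.353% and 3.29% of all genes).

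The promoters of 3 genes are shown, because Rbm14, Rbm38 and Rbm4b were the Rbm genes called in the paired fit and in each of its 3 repeats that left out a replicate number. Each is the 250 bases before the start site that the promoter table lists, 5′ to 3′ on the gene's strand, taken from RefSeq (GRCm38.p6, a patch release of the mm10 assembly). That start site can lie inside the gene's whole span, so the last 73 bases of the Rbm4b window and the last 11 of the Rbm38 window fall within the gene, and 0 of the Rbm14 window do. Capitals mark the motifs searched on both strands. They were the GC box GGGCGG, the CCAAT box, the TATA box as TATAAA, and the E-box as CACGTG.
Rbm14: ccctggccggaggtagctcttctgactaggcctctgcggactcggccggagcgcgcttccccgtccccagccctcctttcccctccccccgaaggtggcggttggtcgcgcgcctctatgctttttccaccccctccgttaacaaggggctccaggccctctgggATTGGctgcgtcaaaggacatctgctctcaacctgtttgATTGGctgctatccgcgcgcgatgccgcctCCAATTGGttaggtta
Rbm38: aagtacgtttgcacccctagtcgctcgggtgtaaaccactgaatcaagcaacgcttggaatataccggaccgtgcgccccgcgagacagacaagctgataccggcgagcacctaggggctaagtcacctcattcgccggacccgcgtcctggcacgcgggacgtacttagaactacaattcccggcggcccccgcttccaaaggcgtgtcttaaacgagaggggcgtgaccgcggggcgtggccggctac
Rbm4b: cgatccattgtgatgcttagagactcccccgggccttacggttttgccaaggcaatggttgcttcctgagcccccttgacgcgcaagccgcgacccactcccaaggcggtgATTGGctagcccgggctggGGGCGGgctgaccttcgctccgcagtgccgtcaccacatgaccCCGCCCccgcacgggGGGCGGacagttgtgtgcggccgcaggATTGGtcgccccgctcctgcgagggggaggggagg

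The Rbm14 window (chr19:4811635-4811884, minus strand) holds 4 CCAAT matches, of which the last pair overlaps in CCAATTGG, and none of the other motifs. The Rbm4b window (chr19:4756275-4756524, plus strand) holds 3 GC boxes and 2 CCAAT matches. The Rbm38 window (chr2:173021652-173021901, plus strand) holds none of the 4 motifs, although its CpG content is 1.18 times that expected from its base composition. For comparison, CCAAT stood in 33.8% of 32851 windows of the same length over all genes and in 13 of 33 windows of the 28 Rbm genes that the table holds. GGGCGG stood in 32.7% and in 12 of 33, TATAAA in 12.4% and in 6, and CACGTG in 6.02% and in 4. The median GC content was 59.2% in Rbm windows and 52.4% over all windows. A match is a description of the letters and not of a bound factor, and these data hold no measure of binding.

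Of the 33 genes, 30 were tested and 3 were too low. Rbm31y, a Y-linked gene, had no count in any library, Rbm24, a muscle splicing factor, had 2 counts in depleted replicate 1 only, and Rbm11 had 3 counts in control replicate 3 only. All of the 30 tested genes except Rbm20 were above the minimum level in the 3 libraries of each group, and Rbm20 was above it in 2 controls and 3 depleted libraries. Together the 33 genes took 0.446, 0.517 and 0.453% of all counts in the controls, in the order of their replicate numbers, and 0.495, 0.587 and 0.489% after IAA. The share was thus higher in the depleted library of each pair, while the groups overlapped. Of the 30 genes, 17 were higher in all 3 pairs and 2 lower in all 3, where 24.2% and 24.1% of all genes were. The groups of 8 Rbm genes did not overlap with the depleted libraries above, and 0 with them below (6.94% and 11.8% of all genes).

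The median log2 fold change (depleted over control) of the 30 genes was 0.18, against 0.024 over all genes tested. By pair the median log2 ratio of the Rbm genes was 0.18, 0.30 and 0.13, with 24, 25 and 20 of the 30 genes higher. This median rested in part on depleted replicate 2. Without that library it was 0.014 in the unpaired fit, with 15 genes above 0, and all genes stood at -0.011. Without replicate 2 in both groups the paired fit gave a median of 0.14 and called 4 Rbm genes higher, namely Rbm14, Rbm38, Rbm4b and Rbm42, and 0 lower.

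The libraries held 14336811 to 25916628 counts. Levels are given as CPM, which brings libraries to the same total after TMM scaling (a trimmed mean of log ratios). Zfp207 RNA, which does not report on the degradation of the protein, stood at 545, 1116 and 548 CPM in controls and 695, 1467 and 596 CPM in depleted libraries. It was higher in all 3 pairs and called higher in the paired fit (log2 fold change 0.29, edgeR adjusted p = 0.0196). The unpaired fit did not call it (edgeR adjusted p = 0.823). The stem cell label was matched by its markers, of which all 9 (Pou5f1, Sox2, Nanog and others) were tested, with a summed level of 4145 to 4553 CPM in controls and 4369 to 4964 CPM in depleted libraries. In the paired fit 2 of these 9 were called higher, Utf1 and Klf4, and 0 lower (4.96% and 7.9% of all genes). Of 8 fibroblast markers, Col3a1, Dcn, Lum and Postn were at 0 in every library, and the list summed to 2.49 to 8.94 CPM in controls and 2.87 to 4.74 CPM in depleted libraries. The primitive endoderm list, most of it Lama1, summed to 109 to 177 and 113 to 188 CPM. The list of the 2-cell-like state ran from 0.114 to 21.7 and from 0.548 to 26.6 CPM, low in both libraries of replicate 2. The part of these lists in the Rbm values was not tested.

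**Figure D1:**
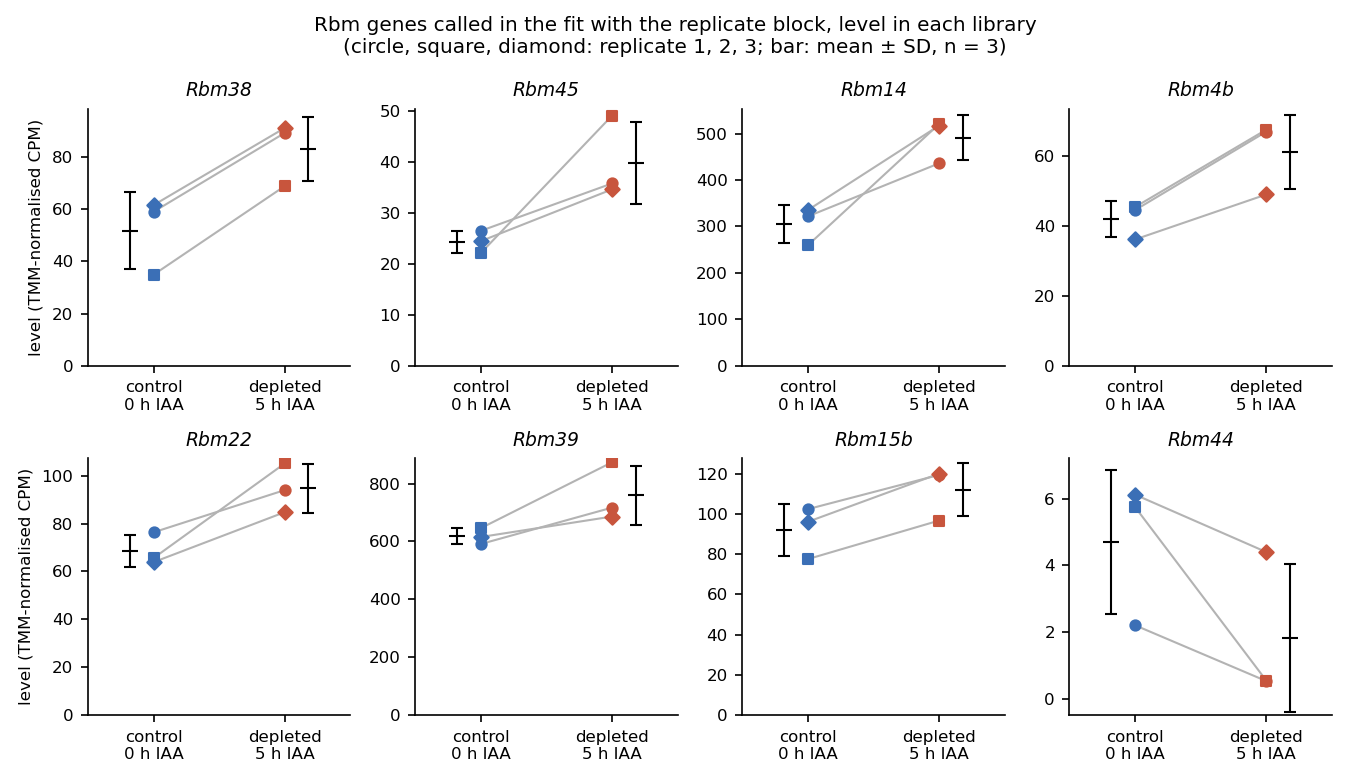
Level of each Rbm gene called in the paired fit, in TMM-normalised CPM on the vertical axis, for control libraries (blue) and libraries with 5 h of IAA (red), with lines joining libraries of the same replicate number and bars giving mean ± SD (n = 3). All lines rise for 7 genes and fall for Rbm44, and the 2 groups overlap for Rbm15b and Rbm44.

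Rbm14 encodes a transcriptional coactivator of nuclear paraspeckles, and it had the smallest p of the Rbm genes. Controls 1 to 3 stood at 322, 260 and 335 CPM and depleted replicates 1 to 3 at 436, 521 and 518 CPM. All depleted libraries lay above all controls. The mean went from 306 ± 40.4 to 492 ± 48.0 CPM (SD, n = 3), a paired log2 fold change of 0.69 (edgeR, SE 0.095, adjusted p = 5.97e-04). In the unpaired fit it was 0.69 (edgeR, SE 0.15, adjusted p = 0.0962), and DESeq2 gave an adjusted p of 0.00180. With a replicate number left out, the paired value ran from 0.53 without replicate 2 to 0.81 without replicate 1 and was called each time. The gene (ENSMUSG00000006456.10) lies on chromosome 19 from 4800566 to 4811634 (mm10).

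Rbm14 has Rbm4 and Rbm4b as neighbours. The gap is 6.56 kb from Rbm14 to Rbm4 and 18.4 kb from Rbm4 to Rbm4b, and all 3 lie inside Gm21992, whose RefSeq synonym is Rbm14-rbm4, a gene read through from one into the other. Rbm4 and Rbm4b encode close relatives that choose alternative exons. Rbm4b (chromosome 19, 4756452 to 4765946) stood at 44.6, 45.5 and 36.2 CPM in controls and 67.1, 67.7 and 49.1 CPM in depleted libraries, again without overlap. Its paired log2 fold change was 0.54 (edgeR, SE 0.11, adjusted p = 0.00640), and its unpaired one 0.54 (edgeR adjusted p = 0.309). Rbm4 (chromosome 19, 4784293 to 4794009) stood at 185, 306 and 185 CPM in controls and 199, 370 and 192 CPM in depleted libraries. It was highest in replicate 2 of both groups and a little higher after IAA in all 3 pairs. Rbm4 was not called, with a paired log2 fold change of 0.14 and a 95% interval of -0.020 to 0.31.

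The read-through gene bears on the values of this cluster, since estimated counts can be divided between overlapping genes and near-identical copies. Gm21992 had 884, 534 and 268 counts in controls and 359, 637 and 275 in depleted libraries, so it was much lower after IAA in pair 1. Rbm4b had 1172, 799 and 668 counts in controls and 1503, 1483 and 725 in depleted libraries. With the counts of Gm21992 added to those of Rbm4b, the paired log2 fold change of Rbm4b was 0.28 and was no longer called (edgeR adjusted p = 0.0812). With them added to Rbm14 it was 0.63 and still called (edgeR adjusted p = 0.00113), and with them added to Rbm4 it was 0.100 (edgeR adjusted p = 0.446). This addition was chosen after the data were seen. Under it the call of Rbm4b was lost and that of Rbm14 was kept. Rbm14 had 4562 to 11421 counts per library, so the addition could move it only a little. Other divisions of reads in the cluster were not tried. Rbm14 lies on the minus strand and Rbm4b on the plus strand. As strandedness was not given, whether reads of Gm21992 could be counted for Rbm4b is not known.

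**Figure D2:**
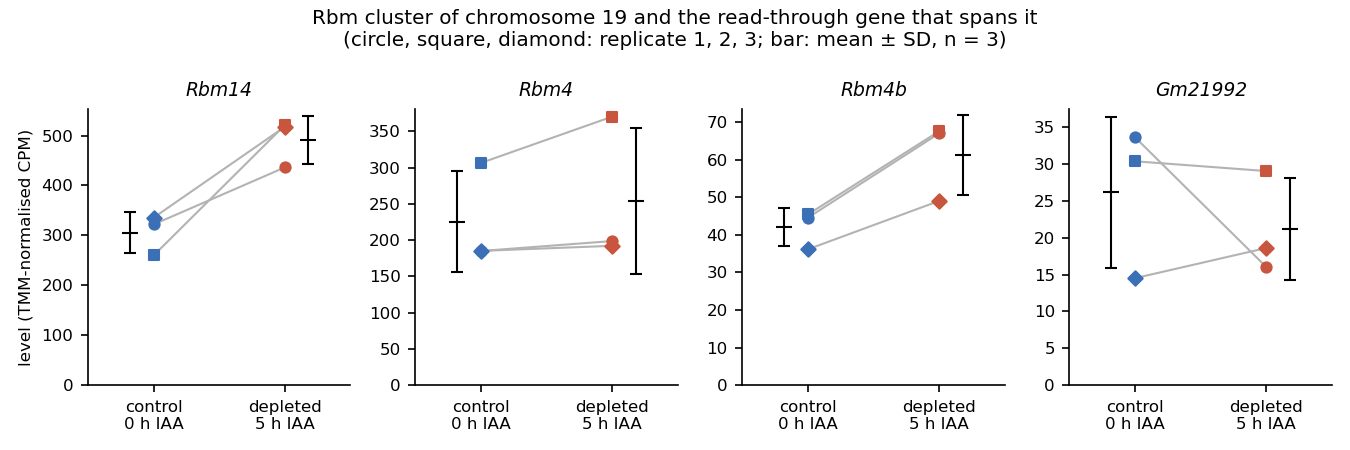
Level in TMM-normalised CPM of Rbm14, Rbm4, Rbm4b and the read-through gene Gm21992 in each library (blue, control; red, 5 h IAA; lines join replicate numbers; bars are mean ± SD, n = 3). Rbm14 and Rbm4b separate the groups, and Gm21992 goes from 33.6 to 16.0 CPM in pair 1 only. Rbm4 is highest in replicate 2 of both groups and a little higher after IAA in each pair.

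Rbm38 encodes a protein that binds messenger RNAs such as that of the cell cycle inhibitor p21, and it is a known p53 target. Its levels were 59.0, 34.9 and 61.6 CPM in controls and 89.3, 68.9 and 91.2 CPM in depleted libraries. Replicate 2 was the lowest library of each group, and the groups did not overlap. The paired log2 fold change was 0.71 (edgeR, SE 0.11, adjusted p = 0.00119), the highest of the called genes, while the unpaired value was 0.68 with an SE of 0.23 (edgeR adjusted p = 0.302). It lies on chromosome 2 from 173021891 to 173034734 (ENSMUSG00000027510.17), and no other gene of the RefSeq table overlaps it.

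Rbm45, an RNA-binding protein gene studied mostly in the nervous system, stood at 26.4, 22.1 and 24.4 CPM in controls and 35.8, 49.0 and 34.6 CPM in depleted libraries. The depleted library of replicate 2 was the highest of all 6. The paired log2 fold change was 0.69 (edgeR, SE 0.16, adjusted p = 0.0128), and DESeq2 without the block also called the gene (adjusted p = 0.0325). Without replicate 2 the paired value was 0.47 and the call was lost (edgeR adjusted p = 0.0936). The gene spans 13.8 kb of chromosome 2 (76369959 to 76383768).

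Of the other genes grouped here as regulators of alternative splicing, Rbm20 and Rbm47 were not called. Rbm20, which splices titin in heart muscle, stood at 2.74, 0.398 and 4.12 CPM in controls and 1.16, 1.1 and 2.10 CPM in depleted libraries. The lowest and the highest of these values both belong to controls, and its unpaired log2 fold change of -0.75 had a 95% interval of -2.45 to 0.96. Rbm47, known as a cofactor of C-to-U editing, averaged 70.7 ± 14.4 CPM without IAA and 69.9 ± 21.7 CPM with it.

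Among the 10 genes grouped as core or general splicing factors, 9 had an unpaired log2 fold change above 0 (52.3% of all genes) and 2 were called in the paired fit, both higher. Rbm22 encodes a part of the activated spliceosome that contacts the intron and U6 snRNA. Its levels were 76.4, 65.6 and 63.9 CPM in controls and 94.1, 105 and 84.8 CPM in depleted libraries. The groups did not overlap, and the paired log2 fold change was 0.46 (edgeR, SE 0.100, adjusted p = 0.00964). Without replicate 2 it was 0.35 and not called (edgeR adjusted p = 0.0664).

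Rbm39 encodes a relative of U2AF2 that helps to recognise the end of introns and also acts as a transcriptional coactivator. It stood at 591, 646 and 615 CPM in controls and 717, 874 and 686 CPM in depleted libraries. These groups did not overlap either, but the step was small, with a paired log2 fold change of 0.29 (edgeR, SE 0.072, adjusted p = 0.0195). The call was lost without replicate 1 (edgeR adjusted p = 0.0669) and without replicate 2, where the value was 0.22 (edgeR adjusted p = 0.113). Rbm39 spans 33.0 kb of chromosome 2 (156147239 to 156180238) and has Rbm12 as a neighbour 35.3 kb away. Rbm12 had means of 288 ± 23.5 and 339 ± 64.2 CPM and was not called (paired edgeR adjusted p = 0.0787).

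Rbm42 had an unpaired log2 fold change of 0.70 that the spread of its libraries did not let the fits call. It stood at 15.6, 10.8 and 13.3 CPM in controls and 25.0, 10.4 and 29.0 CPM in depleted libraries. It was clearly higher after IAA in replicates 1 and 3 and about level in replicate 2. The paired edgeR adjusted p was 0.0877, and without replicate 2 it was 0.0160 at a log2 fold change of 0.90.

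The remaining core splicing genes were not called in either fit. Rbm25, which associates with U1 snRNP and steers the choice of 5′ splice sites, stood at 527, 823 and 520 CPM in controls and 647, 933 and 580 CPM in depleted libraries. It was higher after IAA in all 3 pairs, with a paired log2 fold change of 0.21 (95% interval 0.067 to 0.36, edgeR adjusted p = 0.0556). Replicate 2 was its highest library in both groups. Rbm10, which promotes exon skipping, had paired and unpaired log2 fold changes of 0.25, and its groups did not overlap (104 ± 14.6 and 123 ± 7.90 CPM, paired edgeR adjusted p = 0.0809). Rbm48, a minor spliceosome factor gene, likewise did not overlap between groups (49.9 ± 3.88 and 61.9 ± 7.41 CPM, paired edgeR adjusted p = 0.0729). Rbm5 and Rbm6, paralogues of Rbm10, lie 2.55 kb apart on chromosome 9. Their paired log2 fold changes were 0.10 (95% interval -0.056 to 0.26) and 0.19 (0.0055 to 0.37). Rbm17, which acts at the branch point side of the intron, had 0.21 (0.018 to 0.41), and Rbm41 had -0.013 (-0.27 to 0.25).

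Among the genes for nuclear RNA decay, export and methylation, Rbm15b was the only call in the paired fit. It encodes the paralogue of Rbm15 in the complex that writes m6A, a methyl mark on messenger RNA. Its levels were 102, 77.6 and 96.2 CPM in controls and 120, 96.8 and 120 CPM in depleted libraries. Replicate 2 was lowest in both groups, so the groups overlapped although each pair rose. The paired log2 fold change was 0.29 (edgeR, SE 0.085, adjusted p = 0.0427), and the call was lost on leaving out any replicate number (edgeR adjusted p of 0.110 to 0.194). The gene spans 6.15 kb of chromosome 9 (106880928 to 106887075) and is overlapped by Dcaf1. Rbm26 and Rbm27, which link polyadenylated nuclear RNA to the exosome, had paired log2 fold changes of 0.14 (95% interval -0.0091 to 0.29) and 0.078 (-0.089 to 0.25). Rbm33 averaged 232 ± 25.6 CPM without IAA and 204 ± 21.4 CPM with it and was not called, with a paired log2 fold change of -0.18 (-0.36 to -0.00049).

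The nucleolar genes and the cold shock gene gave no call. Rbm34 stood at 75.8, 107 and 70.2 CPM in controls and 70.8, 75.9 and 58.2 CPM in depleted libraries. It was lower in all 3 pairs, most of all in replicate 2, with a paired log2 fold change of -0.29 (edgeR adjusted p = 0.0798). Rbm19, needed for the small ribosomal subunit, had 98.5 ± 8.39 and 110 ± 5.03 CPM, and Rbm28, needed for the large one, had 110 ± 34.3 and 109 ± 38.4 CPM. Rbm3, whose protein is induced by mild cold, had 282 ± 5.65 and 291 ± 48.3 CPM, and its paired log2 fold change of 0.037 had a 95% interval of -0.16 to 0.24. An antisense gene, Rbm3os, overlaps Rbm3, and without a statement of strand their reads cannot be told apart.

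The germ cell genes were low, and their values rest on few counts. Rbm44, whose protein sits in the bridges between germ cells, had 58, 101 and 113 counts in controls and 12, 12 and 65 in depleted libraries. Its levels were 2.21, 5.75 and 6.12 CPM against 0.536, 0.548 and 4.40 CPM. Each pair fell, by a little in replicate 3 and by far more in the others, and the groups overlapped. The paired log2 fold change was -1.87 (edgeR, SE 0.54, adjusted p = 0.0382), against -1.39 in the unpaired fit (edgeR adjusted p = 0.606). Without replicate 1 or replicate 2 the paired fit did not call it (edgeR adjusted p = 0.105 and 0.201), and without replicate 3 the value was -2.73. The gene spans 25.8 kb of chromosome 1 (91144973 to 91170799) and is overlapped by Gm35443. Rbm46 had 9 to 38 counts per library and no call. Rbm43, in the group without an assigned role, stood at 7.92, 7.0 and 9.26 CPM in controls and 13.6, 9.13 and 13.5 CPM in depleted libraries. The depleted library of replicate 2 was below the highest control, and the paired log2 fold change was 0.57 (edgeR adjusted p = 0.0990).

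**Figure D3:**
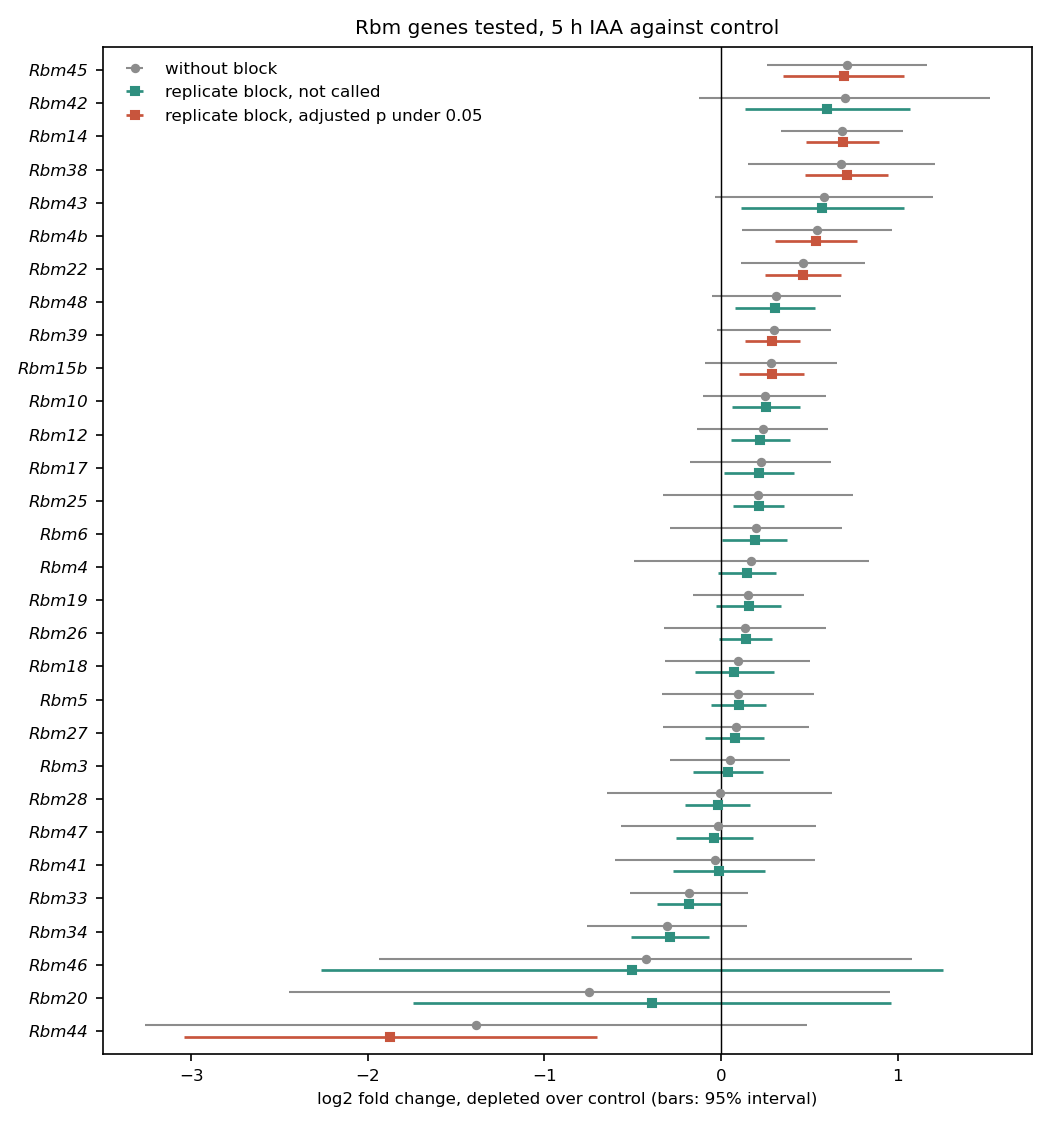
Log2 fold change (depleted over control, horizontal axis) of the 30 Rbm genes tested, from the unpaired fit (grey) and the paired fit (green, or red where the adjusted p was under 0.05), with bars for the 95% interval. Most genes lie to the right of 0 with narrower bars in the paired fit, and Rbm44, Rbm20 and Rbm46 have the widest bars.

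The span of a gene was taken from the RefSeq table, from start to end with introns. It was 6.15 to 33.0 kb for the 7 Rbm genes that rose. Among the 5 tested Rbm genes under 10 kb the median unpaired log2 fold change was 0.28, with 2 called higher and 0 lower in the paired fit. Among the 11 genes of 10 to 30 kb it was 0.31, with 4 called higher and 1 lower. The 10 genes of 30 to 100 kb had a median of 0.14 with 1 called higher and 0 lower, and the 4 genes of 100 kb or more (Rbm20, Rbm33, Rbm41 and Rbm47) had a median of -0.11 with 0 called in the paired fit. The medians of all tested genes in these classes were 0.14, 0.039, -0.069 and -0.12, so all genes also fall off with span. In the same order of classes, the paired fit called 5.89, 7.30, 4.48 and 1.32% of all genes higher and 2.41, 9.27, 13.9 and 12.6% lower. The absence of a higher call among the 4 longest Rbm genes is thus near the share over all genes of that class. Across the 30 Rbm genes Spearman's rho between unpaired log2 fold change and span was -0.63, against -0.24 over 15362 genes. It is a description across genes that share the same 6 libraries. By pair it was -0.48, -0.34 and -0.57, and on leaving out single libraries it ran from -0.63 to -0.50.

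**Figure D4:**
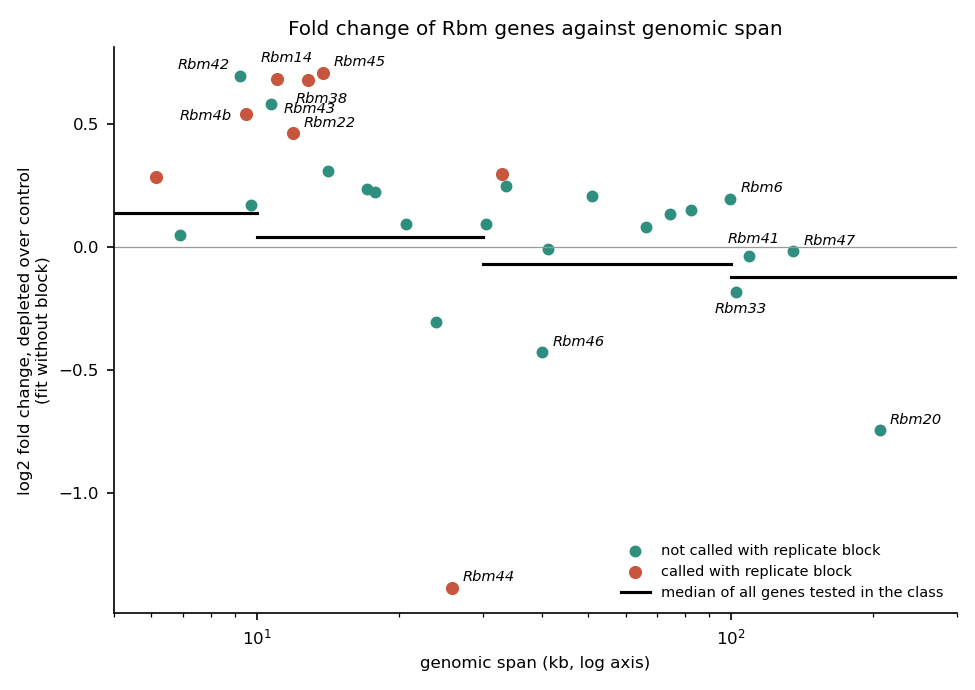
Unpaired log2 fold change (vertical axis) of the 30 Rbm genes tested against genomic span in kb (log axis), red where called in the paired fit, with black lines for the median of all genes tested in each span class. The called genes that rose lie at or below 33.0 kb, and the 4 genes of 100 kb or more lie below 0.

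Genes that work beside the Rbm proteins were taken from lists. Of 30 splicing partners, chosen as factors of U1, U2, the minor spliceosome and the Prp19 complex, 9 were called higher and 2 lower in the paired fit (4.96% and 7.9% of all genes), and 0 in the unpaired one. Their median was 0.13. The 3 that rose with the smallest p were Snrpa, the U1 snRNP protein A gene (80.3 ± 18.9 to 122 ± 25.9 CPM), Rnpc3, which encodes a minor spliceosome protein (70.5 ± 14 to 107 ± 32.4 CPM), and Cherp, a U2-associated factor gene (209 ± 24.4 to 272 ± 48.2 CPM). Their paired edgeR adjusted p-values were 9.63e-04, 0.00429 and 0.00665. Cwc22, which brings the exon junction complex to the spliceosome, fell from 129 ± 4.13 to 98.5 ± 12.5 CPM in the paired fit (edgeR adjusted p = 0.0103), as did U2surp, a partner of Rbm17 in U2 snRNP, from 362 ± 57.4 to 291 ± 76.4 CPM (edgeR adjusted p = 0.0122).

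Of 16 partners in nuclear RNA decay, export and methylation, 4 were called higher and 1 lower in the paired fit (again against 4.96% and 7.9% of all genes) and 0 in the unpaired one, with a median of 0.15. Zfc3h1, the scaffold that joins RNA with poly(A) tails to the nuclear exosome, rose from 149 ± 12.9 to 228 ± 37.2 CPM (paired log2 fold change 0.60, edgeR adjusted p = 4.30e-04). Pabpn1, the nuclear poly(A) binding protein gene, rose from 139 ± 22.9 to 179 ± 4.91 CPM (paired edgeR adjusted p = 0.0202). The exosome nuclease gene Exosc10 rose from 109 ± 13.9 to 136 ± 11.6 CPM (paired edgeR adjusted p = 0.0232). Virma, a scaffold of the m6A writer, fell from 107 ± 12.0 to 78.5 ± 20.9 CPM (paired edgeR adjusted p = 0.00828). Of 15 genes with related names outside the pattern, 13 were tested, and the unpaired fit called 0 of them. The paired fit called 2 higher and 1 lower, where it called 4.96% and 7.9% of all genes. Rbmx, which encodes hnRNP G, and Rbm15, the m6A writer adaptor paired with Rbm15b, were called higher in the paired fit (edgeR adjusted p = 0.00802 and 0.0132), and Rbms2 was called lower (edgeR adjusted p = 0.0234).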

How the data were processed

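Newly made (4sU-labelled) RNA of 3 control and 3 depleted libraries was analysed from 1 table of estimated counts, whole numbers per gene, as deposited. The build mm10 and the tools StringTie 2.2.1, HISAT2 2.2.1 and DESeq2 1.42.0 appear, without roles, in the list per the submitters' processing notes. Strandedness and 4sU pulse length were not given in the sources used here. Several members overlap other annotated genes, and without strand their estimated counts can include reads of those genes. Columns were matched to samples by name. In R 4.3.3, edgeR 4.0.16 kept 17573 genes (filterByExpr), scaled libraries by TMM and ran the quasi-likelihood test with robust dispersions over all 6 libraries. DESeq2 1.42.0 was an alternative. A standard error is the absolute log2 fold change over the square root of its F. Levels are not compared between genes, since transcript lengths were not used here. The fits were first tested on simulated counts, with 200 genes changed 4-fold and a replicate effect built in. Without and with the block, 95 and 96% of these genes were recovered, and 1.04 and 4% of calls were false. Steps as small as those of the Rbm genes were not simulated.

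Deviations from the group means correlated at 0.268, 0.387 and 0.321 between libraries of the same replicate number and at -0.265 to -0.0250 otherwise. As deviations cancel out within each group, positive values for the same number push the others negative. The replicate numbers come from the sample titles, and the alternative fit took them to pair the libraries. Beyond these correlations, which come from the same data, the pairing has no separate support. The labels state 3 independent replicates per group and name no block. They do not say whether replicates are separate cultures. The unpaired p-values reflect library-to-library spread, and the paired ones the spread left after differences between replicate numbers are removed. Either spread may be technical. The genes, role groups and partner lists were chosen with earlier results of these data known. Genes named with all their values are those called in either fit, the 5 with the largest unpaired fold changes and the smallest p of each role group. Rbm4 and Rbm25 were added to these after their values were seen. Of partners, at most 3 per direction were named.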

Additional observations from a re-analysis of the deposited data

How the results depend on the processing

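Without the replicate block no Rbm gene was called by edgeR in any of the settings tried, which were 2 other scalings, 2 other filters on low counts and the omission of each library. The replicate block gave 7 Rbm genes higher and 1 lower, and DESeq2 without it gave 2 higher and 0 lower. On leaving out a replicate number from the paired fit, 4 to 6 were higher and 0 to 1 lower. The median log2 fold change of the Rbm genes was 0.17 with the block and 0.12 without TMM scaling, and it ran from 0.014 (without depleted replicate 2) to 0.28 (without control replicate 2) on leaving out single libraries. Partner genes gave 13 higher and 3 lower calls with the block, 5 to 7 and 0 to 3 on leaving out a replicate number from it, and 1 higher in DESeq2. The median of all genes moved by less than 0.1 between scalings. Genes under about 10 CPM, such as Rbm44, Rbm20 and Rbm46, have wide intervals at this depth.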
